A study of Mus musculus with 9 samples.

Results

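Genes that naïve primary microglia expressed at a measurable level, and whose signal was no longer well above background 24 h after apoptotic cells were given to them, are described here across 9 one-color Agilent 60-mer arrays. The conditions for members were set on measured values of the Control and Ph24h arrays. The probe of a gene had to be flagged well above background by the scanner software on all 3 Control arrays and on none of the 3 Ph24h arrays, and its mean Control level had to be at or above -3. A level is the log2 processed intensity minus the 75th percentile of the gene probes of the same array, so 0 is the 75th percentile and each unit is a factor of 2 (the brightest probe stood for each gene name). In all, 161 gene names met these conditions. After 15 unnamed transcripts (names with lincRNA or chr) and 3 genes were left out by name, 143 of 24101 tested genes remained. Of these 143 genes, 125 were matched to RefSeq, of which 114 are protein-coding, 7 are long noncoding RNAs and 4 are transcribed pseudogenes. Because these values chose the genes, the fall from Control to Ph24h is given as a description, with no test.

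All 3 groups were primary microglia from the brains of fms-EGFP mouse pups aged 0 to 1 d, in which EGFP is driven by the promoter of the macrophage colony-stimulating factor receptor, so that microglia are fluorescent. The cells had been cultured for about 14 d with GM-CSF at 5 ng/ml, shaken off, and rested for at least 24 h in medium with 10% fetal bovine serum. Control microglia received no other cells and carry the time 0 h. Ph3h and Ph24h microglia were fed for 3 h or 24 h with SH-SY5Y cells, a human neuroblastoma line, made apoptotic with staurosporine at 3 μM for 4 h. Each group has 3 arrays, 1 from each of 3 independent experiments. No culture without apoptotic cells was measured at 3 h or 24 h, so feeding and time in culture cannot be told apart. In cultured cells, fewer cells that express a gene and less of its RNA per cell cannot be told apart either.

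Microglia are the resident macrophages of the brain, and they clear dying cells by engulfing and digesting them. Receptors on their surface sense lipids, chemokines and metabolites released around them, and the lipids of a digested cell are handled by transport proteins, peroxisomes and the enzymes of lipid synthesis. Macrophages in culture also respond to stiffness and adhesion through the actin cytoskeleton, and regulators such as YAP, TEAD and SRF drive the genes of that response. A transcript can fall out of detection when its transcription stops and the existing RNA decays, and the pace depends on how stable that RNA is.

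The arrays differed in brightness. The 75th percentile of intensity was 356 to 473 on the Control arrays, 185 to 211 on the Ph3h arrays and 156 to 161 on the Ph24h arrays. The lowest signal that was still well above background was at a level between -5.01 and -4.59 on the Control arrays, between -4.41 and -3.93 on the Ph3h arrays and between -3.84 and -3.70 on the Ph24h arrays, so the Ph24h arrays reached less deep on this scale. A 24 h fold change is therefore a lower bound. It sets the mean Control level against the mean, over the Ph24h arrays, of the higher of that lowest signal and the probe's own level. Brightness moved with the groups, and its part in the loss of these genes was not tested. Among all genes that met the Control condition, 9.69% of the 733 with a Control level from -3 to -2.5 were on no Ph24h array, against 5.39% of 742 from -2.5 to -2, 2.05% of 1270 from -2 to -1, 0.428% of 1402 from -1 to 0, and 0 of 10583 above that. Of the genes between -1 and 0, 98.5% were well above background on all 3 Ph24h arrays. The loss thus touched mainly dim genes, which the rule partly sets, since a dimmer gene needs a smaller fall to lose its flag. The 6 members brighter than -1 came from a range in which loss was rare.

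**Figure D1:**
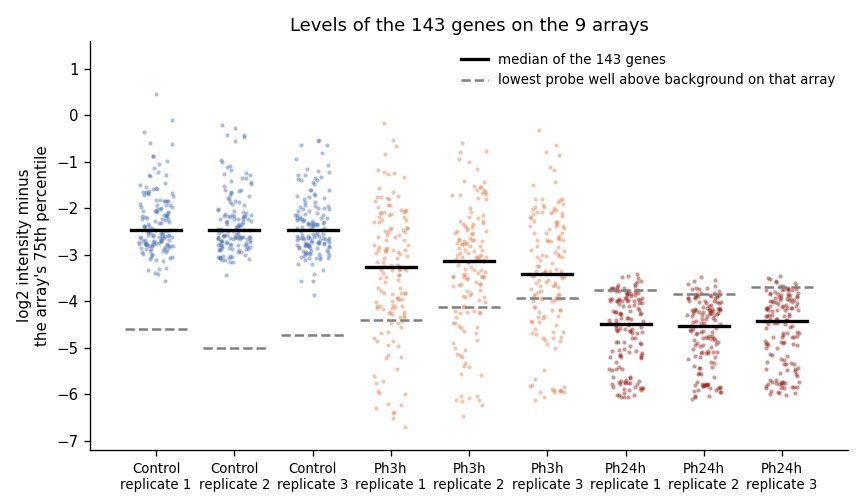
Level (log2 intensity minus the 75th percentile of the array) of each of the 143 genes on each of the 9 arrays, 1 point per gene, with the median of the genes as a black line and the lowest signal well above background on that array as a dashed line. The medians lay at -2.48 to -2.47 in Control, spread downward in Ph3h and lay at -4.53 to -4.42 in Ph24h, where the rule required that no probe be well above background.

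At the threshold, Tmem25, Ryr1 and Mid1 were the dimmest genes inside it, with mean Control levels of -2.99, -2.98 and -2.97. Acacb, 4930431P03Rik and Fam120c met the other conditions and were just outside it, at -3.002, -3.01 and -3.01. The 24 h bounds ran from at least 1.63-fold lower to at least 12-fold lower with a median of 2.35, and 25 genes had a bound of at least 4-fold, 6 of them of at least 8-fold.

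No condition of the rule used a Ph3h array, so the Ph3h arrays show where each gene stood on the way. However, the brightest probe was taken by its mean over all arrays, Ph3h included. Ph3h values could thus affect which probe stood for the 39 genes with several probes, and so whether these genes met the rule. At 3 h, 27 of the 143 genes (18.9%) were well above background on none of the 3 Ph3h arrays, 38 (26.6%) on 1 or 2 of them and 78 (54.5%) on all 3. Among the 3871 genes that met the Control condition and were no brighter in Control than the brightest of the 143, the same shares were 2.14%, 4.99% and 92.9%, and 3.69% met the whole rule. Most of the genes were thus still on every array at 3 h. Of these 78, 19 fell at 3 h by the test given next, 6 rose and 53 did not pass, with a median difference of -0.34. The comparison with the genes of the same range was not tested.

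**Figure D2:**
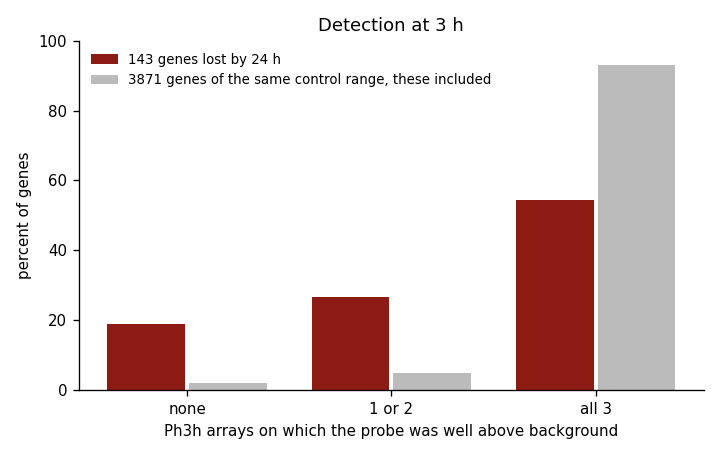
Percent of genes (y axis) whose probe was well above background on none, on 1 or 2 or on all 3 Ph3h arrays (x axis), for the 143 genes lost by 24 h and for the 3871 genes of the same Control range, which include them. The share on none was 18.9% against 2.14%, and the share on all 3 was 54.5% against 92.9%.

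The Ph3h minus Control difference was tested for each gene in a limma fit over all 9 arrays, with Benjamini-Hochberg adjustment over all 24101 genes. At an adjusted p under 0.05, 76 of the 143 genes fell (53.1%), 6 rose and 61 did not pass. Over all genes tested, 25.9% fell and 27.9% rose, and over the genes of the same Control range 33.1% fell and 27.7% rose. Counts given below for roles are to be read beside the 53.1% of the 143 genes. Counts for fixed lists are to be read beside the shares over all genes tested. The median difference of the 143 genes was -0.88, against 0.07 over all genes tested and -0.08 over the genes of that range. With normexp background correction and quantile scaling it was -0.35, against -0.0385 over all genes tested. The 3 Ph3h arrays lay below all 3 Control arrays for 92 genes and above them for 16, with overlap for 35, whereas 30.5% of all genes lay below and 35.2% above (38.2% of the genes of that range lay below). The Control arrays that chose the genes are also one side of this contrast, so these counts describe the genes and are not independent of the choice. The Ph24h arrays, which the rule also used, enter the fit's estimate of the spread and so the p-values. With only Control and Ph3h arrays in the fit, 22 of the 143 calls changed. Of the falls, 5 were lost and 10 gained, and of the rises, 1 was lost and 6 were gained. From 3 h to 24 h, the Ph24h arrays lay below the Ph3h arrays for 92 genes, overlapped them for 37 and lay above them for 14, and no Ph24h value was well above background.

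**Figure D3:**
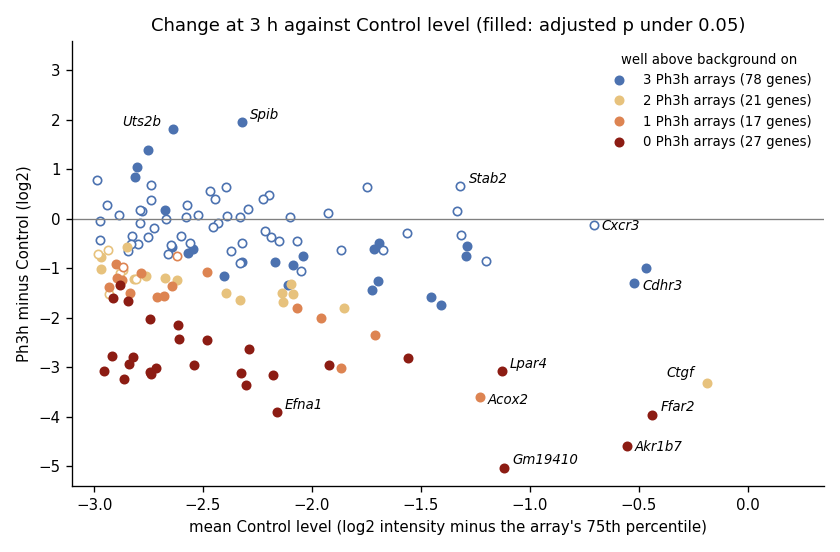
Ph3h minus Control (log2, y axis) against the mean Control level (x axis) of each of the 143 genes, colored by the number of Ph3h arrays on which the probe was well above background and filled where the adjusted p was under 0.05. All 27 genes on no Ph3h array fell, with differences from -5.02 to -1.33, a direction that their missing flags at 3 h largely set. The genes on all 3 Ph3h arrays spread from -1.74 to 1.96.

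The brightest gene in Control was Ctgf, now named Ccn2, which encodes a secreted matrix protein and is a standard target of YAP and TEAD (its probe lies at chr10:24318281-24318340 of mm9). Its level was 0.46, -0.20 and -0.81 in Control, -2.84, -2.89 and -4.79 in Ph3h and -4.10, -4.18 and -5.27 in Ph24h. Every fed array lay below every Control array, and the probe was still well above background on Ph3h replicates 1 and 2. The fall at 3 h was -3.32 ± 0.62 (SE, n = 3 arrays per group) with a limma adjusted p of 0.00288, and the level at 24 h was at least 12-fold lower than in Control.

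Ffar2 and Lpar4, 2 receptors for small lipids and metabolites, were well above background on no Ph3h array. Ffar2, the receptor for short-chain fatty acids, was at -0.10, -0.56 and -0.65 in Control, at -4.16, -5.41 and -3.60 in Ph3h, and at -5.19, -5.30 and -5.78 in Ph24h. It was on no Ph3h array, at least 11.5-fold lower at 3 h (limma adjusted p = 0.000217) and at least 10.1-fold lower at 24 h. Lpar4, a receptor for lysophosphatidic acid, was at -0.88, -1.29 and -1.22 in Control, -4.34, -4.11 and -4.19 in Ph3h, and -4.78, -4.23 and -3.81 in Ph24h. It was likewise on no Ph3h array, at least 7.96-fold lower at 3 h (limma adjusted p = 3.47e-05), and its fed arrays at both times overlapped. Of the 65 measured genes in a fixed list of receptors for lipids, nucleotides, amines and metabolites, 25 rose and 16 fell at 3 h, and Ffar2 and Lpar4 met the whole rule. Over all genes tested, the shares were 27.9% and 25.9%. P2ry12, Cysltr2, Gpr171 and S1pr4 of the same list also went from every Control array to no Ph24h array, with Control levels under -3. Those levels were close to the lowest signal well above background on the Ph24h arrays, so a flag could be lost with little or no fall. The mean level of S1pr4 did not fall, being -3.68 in Control and -3.53 in Ph24h. P2ry12, Cysltr2 and Gpr171 were at -5.76, -5.21 and -4.66 in Ph24h.

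Cxcr3, the receptor for the interferon-induced chemokines Cxcl9 and Cxcl10, was still on every array at 3 h. It was at -0.89, -0.29 and -0.95 in Control, -0.67, -1.02 and -0.79 in Ph3h, and -3.73, -4.26 and -3.89 in Ph24h. Control and Ph3h arrays overlapped (difference -0.12 ± 0.21, limma adjusted p = 0.668), while all 3 Ph24h arrays lay below both, at least 8.29-fold under Control. Of 70 measured chemokines, cytokines and their receptors, 37 rose and 14 fell at 3 h, and Cxcr3 met the whole rule, while Il1r1 and Il34 also went from every Control array to no Ph24h array, with Control levels under -3. Stab2, a scavenger receptor for hyaluronan, was at -1.28, -1.27 and -1.41 in Control, -0.54, -0.78 and -0.65 in Ph3h and -3.62, -4.18 and -4.78 in Ph24h. Its Ph3h arrays all lay above its Control arrays, although the difference of 0.67 ± 0.26 did not pass the test (limma adjusted p = 0.063), and the mean over all probes of the gene gave -0.37 in its place. In all, 5 of 10 receptors fell at 3 h, none rose, and their median difference was -0.60. Of all 143 genes 53.1% fell, with a median of -0.88. Lifr, the receptor for leukemia inhibitory factor, was among those that did not pass (0.07 ± 0.16), and the authors' value table gave -0.12. Its probes differed at 3 h. Another probe went from a mean of -6.81 and no Control array to -4.04 and 2 Ph3h arrays, and a further one from -4.80 to -4.60.

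**Figure D4:**
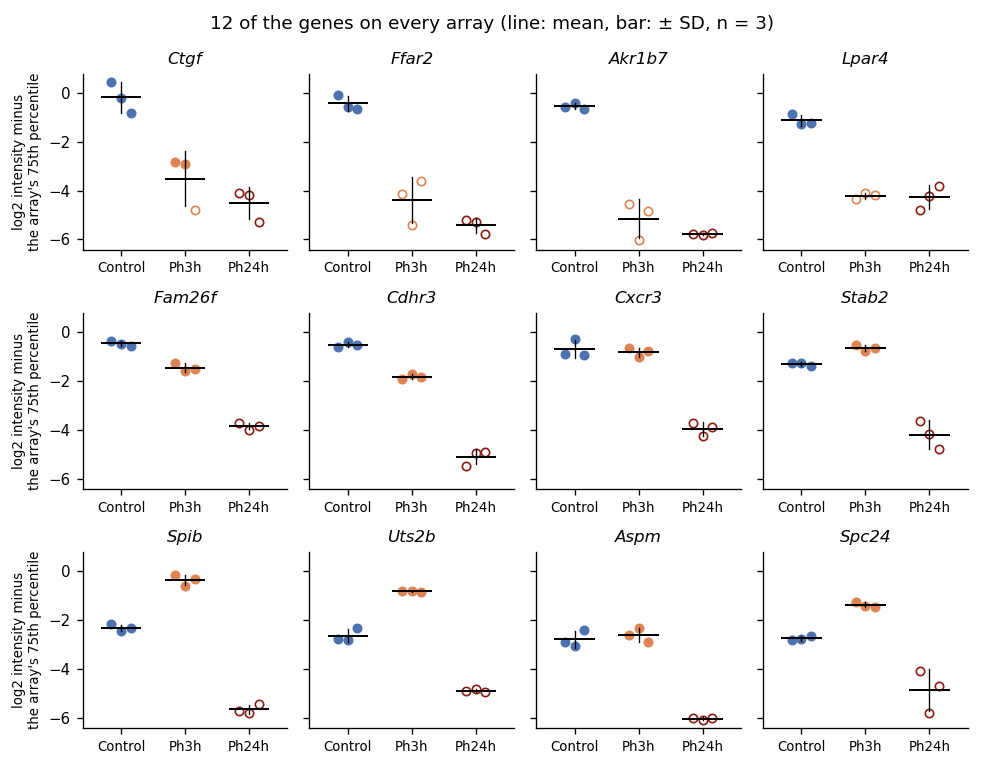
Level (log2 intensity minus the 75th percentile of the array) of 12 of the genes on every array, 1 point per array in replicate order, filled where the probe was well above background on that array, with the mean as a line and ± SD as a bar (n = 3). The top row fell by 3 h, Fam26f and Cdhr3 fell in steps, Cxcr3, Stab2 and Aspm did not pass the test at 3 h, and Spib, Uts2b and Spc24 rose at 3 h before they were lost.

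Of 8 genes grouped by hand under lipid, peroxisomal and intermediary metabolism, 7 fell at 3 h. Of the 8, 4 were on no Ph3h array, 2 on 1 or 2 and 2 on all 3, with a median difference of -2.48. Akr1b7, an aldo-keto reductase that reduces aldehydes of lipid and steroid origin, was at -0.60, -0.42 and -0.64 in Control, -4.56, -6.04 and -4.84 in Ph3h, and -5.77, -5.83 and -5.74 in Ph24h. No array was well above background at either time, and the level was at least 12.1-fold lower at 3 h (limma adjusted p = 2.99e-05). Acox2, the peroxisomal oxidase for branched-chain fatty acids and bile acid intermediates, was at -1.50, -1.11 and -1.08 in Control and -4.15, -5.34 and -5.01 in Ph3h, where 1 array was still well above background. It fell by 3.6 ± 0.29 (limma adjusted p = 4.18e-05), and was at -4.28, -4.25 and -4.11 in Ph24h.

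Abcd2, a transporter that carries very long-chain fatty acids into peroxisomes, was at -2.64, -2.88 and -2.71 in Control and -4.94, -4.54 and -4.84 in Ph3h, at least 2.66-fold lower (limma adjusted p = 8.71e-06). Slc27a6, a fatty acid transport protein, and Mogat2, which makes diacylglycerol, were at least 3.62-fold and 2.49-fold lower at 3 h, and both were on no Ph3h array. Pck2, the mitochondrial phosphoenolpyruvate carboxykinase, was at -1.67, -1.74 and -1.75 in Control, -3.26, -3.05 and -3.17 in Ph3h and -3.87, -3.73 and -3.88 in Ph24h. Its groups did not overlap at any step, and it was still on all 3 Ph3h arrays after a difference of -1.44 ± 0.07 (limma adjusted p = 5.07e-06). Enpp1, an ectoenzyme that splits nucleotides into pyrophosphate, was the exception: it was higher in all 3 Ph3h arrays (-1.77, -1.55 and -1.80) than in Control (-2.39, -2.34 and -1.86), without passing the test (limma adjusted p = 0.368), and the mean over all its probes differed by -0.0076.

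All 3 genes grouped by hand under ion channels fell at 3 h. The calcium release channel gene Ryr1 was not put in that group (mean level -2.98 in Control and -3.69 in Ph3h). Kcnj2, an inward rectifier potassium channel that holds the resting potential of microglia, was at -1.97, -1.86 and -1.94 in Control, -5.61, -4.90 and -4.12 in Ph3h, and -3.59, -3.86 and -5.73 in Ph24h. It was on none of the fed arrays, and was at least 4.70-fold lower at 3 h (limma adjusted p = 0.00422). Kcnmb3, a regulatory subunit of calcium-activated potassium channels, was also on no Ph3h array, although its 3 Control arrays were spread from -3.86 to -1.85. Fam26f, now named Calhm6, a membrane protein of the calcium homeostasis modulator family, went more slowly. It was at -0.37, -0.47 and -0.56 in Control, -1.26, -1.62 and -1.51 in Ph3h, and -3.74, -3.99 and -3.85 in Ph24h, which is a difference of -0.996 ± 0.11 at 3 h (limma adjusted p = 0.000238) and a level at least 9.81-fold lower at 24 h.

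Transcription factors and other regulators held both early losses and the largest rise. Of 12 such genes, 9 fell at 3 h, 1 rose and 4 were on no Ph3h array. Satb1, a chromatin organizer of lymphoid and myeloid cells, was at -2.31, -2.41 and -2.26 in Control, -4.79, -5.58 and -5.93 in Ph3h and -5.97, -6.04 and -5.92 in Ph24h, at least 3.56-fold lower at 3 h (limma adjusted p = 5.08e-05). Gfi1, a transcriptional repressor of myeloid differentiation, was at -1.94, -2.28 and -1.98 in Control and -3.17, -4.46 and -3.98 in Ph3h, where 1 array was still well above background. The zinc finger genes Zfp599, Zkscan4 and Zfp324 were on no Ph3h array, with bounds of at least 3.93-fold, 2.66-fold and 2.91-fold at 3 h.

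Spib, an ETS factor related to the macrophage factor PU.1, went the other way before it was lost. It was at -2.18, -2.46 and -2.33 in Control, -0.17, -0.60 and -0.32 in Ph3h and -5.72, -5.80 and -5.43 in Ph24h. It was thus 3.89-fold higher at 3 h (1.96 ± 0.14, limma adjusted p = 2.81e-05) and the brightest of the 143 genes on the Ph3h arrays, and was well above background on none of the 3 Ph24h arrays.

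The genes grouped by hand under secreted signals and carriers ranged from an early loss to a rise. Efna1, put in this group although it is a ligand of Eph receptors held on the cell surface, had the largest fall of the group. It was at -2.24, -2.31 and -1.94 in Control and -6.22, -6.08 and -5.89 in Ph3h, at least 3.99-fold lower (limma adjusted p = 4.33e-06). Uts2b, a vasoactive peptide related to urotensin, was at -2.77, -2.82 and -2.33 in Control, -0.83, -0.79 and -0.87 in Ph3h and -4.88, -4.82 and -4.95 in Ph24h, so that it rose 3.51-fold at 3 h (limma adjusted p = 2.19e-05) and was then lost. Of the 9 genes of this group, 3 fell, 1 rose and 5 did not pass.

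Genes of mitosis, replication and chromatin behaved unevenly: of 12, 6 fell at 3 h, 2 rose and 4 did not pass. Spc24, part of the kinetochore complex that binds spindle microtubules, was at -2.83, -2.75 and -2.67 in Control, -1.25, -1.42 and -1.45 in Ph3h, and -4.09, -5.81 and -4.68 in Ph24h. Its rise at 3 h was 1.38 ± 0.38 (limma adjusted p = 0.0176), and all 3 Ph3h arrays lay above Control. Ska1, another kinetochore protein, rose by 1.04 ± 0.14 (limma adjusted p = 0.000571). Aspm, a spindle pole protein, was at -2.89, -3.07 and -2.39 in Control and -2.62, -2.33 and -2.89 in Ph3h with overlap, and then at -6.02, -6.09 and -5.99. Cenpq, a centromere protein, was at -1.29, -1.42 and -1.29 in Control, -1.19, -1.17 and -1.18 in Ph3h and -4.63, -3.94 and -4.32 in Ph24h (difference at 3 h 0.16 ± 0.16, limma adjusted p = 0.445), and the difference was -0.0889 with median scaling and -0.46 with the mean over its probes.

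In contrast, Hist1h1d, now named H1f3, a linker histone gene, and Dna2, a nuclease and helicase that processes replicating DNA, were on no Ph3h array, at least 2.67-fold and 3.51-fold lower than in Control. For Dna2 this holds for its brightest probe. Its other probe, on no Control array, was at -6.60, -6.37 and -2.69 in Ph3h, where 1 array was well above background. Among the 62 measured genes of a fixed list of mitosis and cell cycle genes, 31 rose and 6 fell at 3 h, and 52 were well above background on all Ph24h arrays. Spc24 and Aspm met the whole rule, and Kif4, Cdc25c, Kif18a and Cdk6 of the same list also went from every Control array to no Ph24h array, with Control levels under -3.

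Among genes of adhesion and matrix, 8 of 16 fell at 3 h and none rose. Cdhr3, a cadherin-related protein, was at -0.62, -0.42 and -0.53 in Control, -1.94, -1.71 and -1.83 in Ph3h and -5.46, -4.93 and -4.91 in Ph24h. Each step separated all arrays, with a difference of -1.30 ± 0.16 at 3 h (limma adjusted p = 0.000307) and a level at least 9.50-fold lower at 24 h. Pvrl4, now named Nectin4, a cell adhesion protein, was at -1.46, -1.23 and -1.17 in Control and -1.79, -1.67 and -2.04 in Ph3h (limma adjusted p = 0.025). Thsd1, Ceacam11 and Cdh11 were on no Ph3h array, whereas Fat3 (difference 0.04) and Scel (0.20) did not pass the test.

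Of 12 genes of intracellular signaling, 7 fell at 3 h, 1 rose and 4 did not pass, with a median difference of -0.81. Rasgrp3, an activator of Ras and Rap proteins, fell by 1.57 at 3 h (limma adjusted p = 0.00142).

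Some genes of smooth muscle, matrix and caveolae varied widely between the 3 Control arrays. They are named because their Control SDs were among the largest of the 143, which was seen in the values. The potassium channel subunit gene Kcnmb3, given above, was also widely spread in Control, so a wide spread was not limited to genes of this kind. Timp3, an inhibitor of metalloproteinases, was at -2.68, -1.10 and -3.21 in Control, Actg2, a smooth muscle actin, at -1.54, -3.43 and -2.33, and Sdpr, now named Cavin2 and a component of caveolae, at -1.05, -2.16 and -3.19. The median Control SD of the 143 genes was 0.17. No gene of the contractile group of 5 passed the test at 3 h, including Actg2 (difference -0.09 ± 0.62) and Fhl2, a cofactor of SRF (0.68 ± 0.52).

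Of 32 measured YAP, TEAD and SRF target genes, 12 rose and 7 fell at 3 h, and Ctgf, Actg2 and Fhl2 met the whole rule, while Arhgef17 and Dlc1 also went from every Control array to no Ph24h array, with Control levels under -3. The summed level (linear, in units of the 75th percentile of the array) of 8 fibroblast and mural cell markers was 7.86, 5.29 and 4.32 on Control replicates 1, 2 and 3. That is the order of arrays for Ctgf and Sdpr but not for Timp3 or Actg2. The sum was 7.91 to 10.6 in Ph3h and 9.73 to 10.8 in Ph24h. The 8 markers did not move together: Fbln1 went from a mean level of -3.82 in Control to 2.18 in Ph3h and 2.68 in Ph24h. Dcn, Col1a1 and Lum were also higher in Ph24h than in Control, whereas Tagln, Acta2, Col1a2 and Col3a1 were lower. The part of this sum in these values was not tested. None of the 10 marker lists of cell types held a gene of the 143. All 18 microglia and macrophage markers were well above background on every Control array and 17 on every Ph24h array. The summed level of 7 neuron markers was 6.58 to 7.76 on the Control arrays. It was 93.4 to 112 after 3 h and 134 to 141 after 24 h (the fed cells were neuroblastoma cells). Stmn2, with mean levels of 6.19 at 3 h and 6.71 at 24 h, weighed most in this linear sum. Snap25 came next, at 3.72 and 3.82. At 3 h, 5 of the 7 rose, whereas Rbfox3 (difference 0.23) and Tubb3 (0.41) did not pass the test. The paper reports degraded RNA and no active transcription in apoptotic SH-SY5Y cells. The part of the neuron sum in these results was not tested either.

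**Figure D5:**
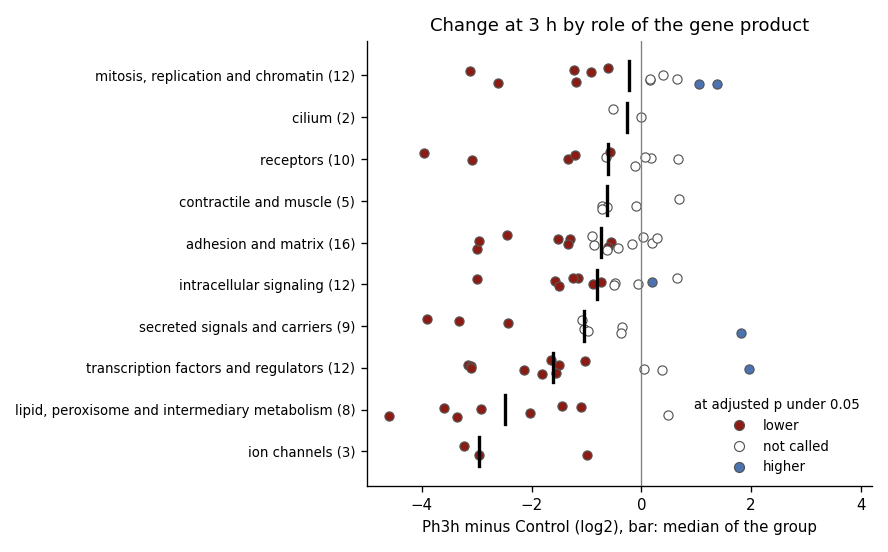
Ph3h minus Control (log2, x axis) of the 89 genes with a role assigned by hand, by role (y axis, number of genes in brackets), filled red where the gene fell and blue where it rose at an adjusted p under 0.05, with the median of each role as a bar. Ion channels and lipid metabolism had the lowest medians, -2.96 and -2.48, and mitosis, replication and chromatin spread from -3.13 to 1.38.

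Of the remaining bright genes, Gm19410, a predicted gene, was the one with the largest measured fall at 3 h. It was at -0.978, -1.004 and -1.37 in Control, -6.39, -6.13 and -5.90 in Ph3h and -5.73, -5.80 and -5.74 in Ph24h, so that it was not well above background at either time and was at least 8.21-fold lower at 3 h (limma adjusted p = 3.99e-07). Cped1 was at -1.22, -1.19 and -1.20 in Control and at -2.11, -2.09 and -1.97 in Ph3h, which did not overlap, yet it missed the threshold in the fit of all 9 arrays (limma adjusted p = 0.0608), in which its Ph24h arrays spread from -5.98 to -4.47. The noncoding A930003A15Rik fell by 0.75 ± 0.23 at 3 h (limma adjusted p = 0.0288), and Gm4131 differed by -0.34 ± 0.29 without passing. Chn2, a Rac GTPase-activating protein, had a Ph3h mean 0.65 above Control (limma adjusted p = 0.0889). Besides Spib, Uts2b, Spc24 and Ska1, the genes that rose at 3 h were 2700099C18Rik (0.84 ± 0.23, limma adjusted p = 0.0184) and Rgs18, a regulator of G protein signaling, whose rise was small (0.19 ± 0.06, limma adjusted p = 0.0399). The difference of Rgs18 was 0.000331 in the authors' value table, so its rise depends on the scaling.

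The promoters of the genes were searched for 12 short motifs. The RefSeq promoter table (GRCm38.p6) held 90 of the 143 genes, and the 250 bases before the first listed start were searched on both strands, with the 27025 genes of the table as background. CCAAT was in 37.8% of the genes against 34.5% of all, GGGCGG in 44.4% against 32.9%, TATAAA in 7.78% against 13%, CACGTG in 5.56% against 6.05%, TGAGTCA in 4.44% against 4.43%, TGACGTCA in 2.22% against 1.62%, GGAATG, the TEAD core, in 10.0% against 12.6%, TGGGAA in 15.6% against 21.5%, GAGGAAGT, an ETS site, in 3.33% against 2.44%, and TTTCCCGC, an E2F site, in 1.11% against 0.929%. Of the 18 genes on no Ph3h array 8 held GGGCGG, as did 23 of the 51 on all 3. The interferon response core was in 3.33% of the genes against 3.04% of all. The NF-kappaB site was in only 1 of the 90 genes (1.11%) and in 35 of all 27025 (0.13%). The median GC content of these windows was 55.6% for the genes and 52.0% for all. The shares were close to the background for most motifs and no test was made of them.

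The promoters of 4 genes with different courses are shown, each 5′ to 3′ on the strand of the gene, in lower case with the motif matches in capitals (none of them overlap here). Akr1b7 was gone at 3 h, Cxcr3 was on every array at 3 h, Spib rose at 3 h, and Aspm is a gene of mitosis. Akr1b7 is at chr6:34412112-34412361 (plus strand), Cxcr3 at chrX:101734148-101734397 (minus), Spib at chr7:44532072-44532321 (minus) and Aspm at chr1:139454523-139454772 (plus), all in GRCm38.p6.
Akr1b7: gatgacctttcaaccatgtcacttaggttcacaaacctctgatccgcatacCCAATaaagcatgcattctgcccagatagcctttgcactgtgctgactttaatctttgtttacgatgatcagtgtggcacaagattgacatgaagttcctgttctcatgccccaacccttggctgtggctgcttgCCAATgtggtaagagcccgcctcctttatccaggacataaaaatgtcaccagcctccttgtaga
Cxcr3: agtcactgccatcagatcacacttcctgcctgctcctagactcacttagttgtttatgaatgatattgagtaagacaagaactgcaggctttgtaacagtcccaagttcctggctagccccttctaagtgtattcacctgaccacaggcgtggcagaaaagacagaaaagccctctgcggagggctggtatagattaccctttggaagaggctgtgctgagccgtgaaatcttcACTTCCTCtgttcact
Spib: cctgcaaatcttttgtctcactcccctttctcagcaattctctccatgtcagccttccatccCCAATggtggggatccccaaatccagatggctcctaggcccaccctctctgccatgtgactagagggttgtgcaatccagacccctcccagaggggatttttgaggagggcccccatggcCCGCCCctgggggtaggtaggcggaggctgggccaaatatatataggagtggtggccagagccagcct
Aspm: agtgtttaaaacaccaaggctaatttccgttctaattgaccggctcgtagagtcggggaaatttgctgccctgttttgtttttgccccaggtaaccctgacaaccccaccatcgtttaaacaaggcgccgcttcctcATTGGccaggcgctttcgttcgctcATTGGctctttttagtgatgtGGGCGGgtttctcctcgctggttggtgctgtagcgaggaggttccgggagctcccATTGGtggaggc

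In these windows Akr1b7 held CCAAT at 199 and 64 bases before the start, Cxcr3 held GAGGAAGT on the opposite strand (read here as its reverse complement) 16 bases before it, and Spib held CCAAT at 188 and GGGCGG on the opposite strand at 68. Aspm held CCAAT on the opposite strand at 113, 88 and 12 and GGGCGG at 67. A match is a run of letters and does not show that a factor binds there.

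Other probes of the same genes were read where the array had them. Of the 143 genes, 104 had 1 probe and 39 had several, with 54 further probes. Of the 54, 27 were well above background on no array, and all 14 that were on every Control array were on no Ph24h array. Some of these 14 had Control levels near or under the lowest signal well above background on the Ph24h arrays, so their flags could be lost without a fall. A probe of Mphosph9 went from a mean of -3.80 in Control to -4.05 in Ph24h, whereas a probe of Cenpq went from -2.55 to -5.11. However, 3 probes that were not on every Control array were on all 3 Ph24h arrays. A probe of Ttc39a had its Control levels at -5.30, -5.10 and -6.00, was well above background at -3.47, -3.69 and -3.38 in Ph3h, and reached -2.68, -2.78 and -2.49 in Ph24h, while the brightest probe of the gene was lost and another for the same transcript variant went from -3.51, -3.50 and -3.53 in Control to -6.00, -6.06 and -5.99 in Ph24h. These probes of 1 gene name thus moved in opposite directions. A probe of Mcf2l for another transcript went from -4.22, -4.79 and -3.73 to -3.22, -3.21 and -2.53 at 24 h, and one of AI854703 from -5.01, -4.01 and -4.24 to -3.11, -2.88 and -2.96. A further 5 probes, of Lifr, Ctnnal1, Lzts1 and Tmem231, were each on 1 Ph24h array, with mean levels higher at 24 h than in Control. For these genes the loss holds for the probe that stood for the gene, and not for every probe under its name.

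Positions on mm9 were known for 141 of the genes, and 20 of them formed 10 pairs whose probes lay within 250 kb of each other. Among the tested genes within that distance of a member, 1.55% were members, against 0.593% of all tested genes with a position. The closest pair was Ctgf and Enpp1 on chromosome 10, with probes 39.8 kb apart, at chr10:24318281-24318340 and chr10:24358048-24358107 and on opposite strands. They went different ways at 3 h, with differences of -3.32 and 0.49. Spib and Clec11a on chromosome 7 lay 222 kb apart and also differed in sign at 3 h (1.96 and -0.97), whereas both Ldoc1 on the X chromosome and the unnamed probe 122 kb from it were lower (-1.65 and -0.91). No test was made of the positions.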

How the data were processed

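RNA of 9 microglia cultures was measured on 1-color Agilent SurePrint G3 mouse arrays (probe positions in mm9). The authors deposited the scanner output, whose processed signal is a background-corrected intensity from Feature Extraction 10.7.3.1, and a table of log2 values that the authors made with GeneSpring GX 13.0 and that is centered per probe. The table served as an alternative only. From the intensities, log2 minus the 75th percentile of the gene probes of each array was computed, control spots were left out, and the brightest probe stood for each gene name. The Ph3h minus Control difference was tested with limma 3.58.1 (R 4.3.3) in a fit of all 9 arrays, with Benjamini-Hochberg adjustment over 24101 genes at a threshold of 0.05, after testing the fit on simulated data. The genes and lists were chosen with earlier results of these data known. The naming rule took the 15 genes brightest in Control, up to 10 brightest at 3 h among those on all Ph3h arrays, up to 10 with the largest fall among those on none, list members, genes at the threshold, genes with another probe on all Ph24h arrays and up to 5 with a higher mean at 3 h. Further genes named by role were chosen after their values were seen. A gene that the rule names is not reported here. Nothing states whether cultures shared animals beyond the 3 experiments, and p-values measure the spread between these arrays, whose number limits the precision. Alternatives were other scalings, filters, probe rules, blocks, slides, cuts and left-out arrays.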

Additional observations from a re-analysis of the deposited data

How the results depend on the processing

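The number of the 143 genes that fell at 3 h was 76, and it was 94 with median scaling, 88 with quantile scaling, 103 with normexp background correction and quantile scaling, 88 in the authors' value table, 71 with the mean over probes and 77 with the slide as a block. Leaving out 1 array gave 61 to 81. The median difference of -0.88 became -1.12 with median scaling (where all genes moved to -0.18), -1.03 with quantile scaling, -0.35 with normexp and -1.03 in the value table, and was -0.92 to -0.81 with 1 array left out. The number of genes was 32 with the Control minimum at -2, 529 at -4, 141 to 193 with 1 array left out, 106 where every probe of the gene had to meet the rule and 140 where every spot had to. The 27 genes on no Ph3h array became 30 to 35 with 1 Ph3h array left out, and 21 where the intensity was set against the lowest signal well above background in place of the probe's own flag. Same-numbered samples did not deviate together (correlations of -0.057 to 0.041), and the fit with the replicate block gave 72 that fell and 5 that rose. Slide 2 held only replicate 3 of each group, so no test was made on it. Its median, added after seeing the data, was -0.87. With slide 1 alone, which held replicates 1 and 2, 18 of the 76 falls were lost and 5 others gained.

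Of 39 named genes under 20 alternatives, 15 of 780 values changed sign, and the cause was not tested. Aspm was -0.0764 with median scaling, -0.0222 with quantile scaling, -0.0534 with normexp and -0.0242 in the value table. Cenpq was -0.0889 with median scaling and -0.46 with the mean over probes, which also gave -0.37 for Stab2, -0.0076 for Enpp1, 0.82 for Mid1 and 0.0117 for Mcf2l. With 1 array left out, Mid1 ran from -0.226 (without Ph3h replicate 3) to 0.10 (without Ph3h replicate 1). Actg2 was 0.20 on slide 1 alone, and from -0.591 (without Control replicate 2) to 0.354 (without Control replicate 1) with 1 array left out, being 0.15 without Ph3h replicate 3. Cxcr3 ran from -0.239 (without Control replicate 3) to 0.0914 (without Control replicate 2). Signal over background limits all of these: the Ph24h arrays were the dimmest.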
